A study of Mus musculus with 20 samples.

Results

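Genes of T cell and natural killer (NK) cell killing were followed in bulk poly(A) RNA of mouse breast tumours carried as allografts, that is, mouse tumours growing in recipient mice. They were chosen by symbol from the deposited table of 16411 genes. Of the 9 named genes, Cd3e, Cd3g, Cd8a, Gzma, Gzmb, Gzmc, Prf1 and Nkg7 were analysed, and Ncr1 is not analysed here. All 8 passed the filter on low values, which asked for a log2 count per M reads (CPM) above 0 in at least 2 libraries.

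The groups were OR1 treated with olaparib (4 libraries, 36.8 to 77.8 M reads), OR1 controls (3, 44.2 to 87.7), OR2 treated with olaparib (3, 94.1 to 116), OR2 controls (2, 74.9 and 77.6), MDA594 treated with olaparib (3, 63.0 to 118) and MDA594 controls (4, 48.7 to 89.2). These reads are sums over the genes of the deposited table, recovered from log2 CPM, and not the whole sequencing depth. Olaparib blocks poly(ADP-ribose) polymerases (PARP). MDA594 is sensitive to it, and OR1 and OR2 are its resistant derivatives MDA594OR1 and MDA594OR2. The series' design text calls the controls untreated and the table's header calls them vehicle. The series asks how resistance arises, with NK cells named in its title.

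A library with contradictory labels (a control by its title, treated by its treatment label) entered no group. The 19 grouped libraries carry 14 host codes, where a shared code is taken as the same host animal. The pairs that share a code are OR1 olaparib 2 and 3, OR1 control 1 and 2, both OR2 controls, MDA594 olaparib 1 and 2, and MDA594 control 3 and 4. Both OR2 controls thus stand for 1 animal. The strain, immune status and age of the hosts, and the duration of treatment, are not given in the sources used here. Titles of the olaparib libraries carry a number after the drug's short name. Its meaning and unit are not stated, so no dose is given here. Whether hosts were chosen at random is not given either, so the p-values cover only the scatter of the libraries at hand.

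Killer lymphocytes lyse target cells by releasing granules. Perforin opens the way into the target, and granzymes, serine proteases stored in the same granules, then cut proteins inside it. T cells recognise targets through the T cell receptor, whose signalling chains include CD3 epsilon (Cd3e) and CD3 gamma (Cd3g), and the CD8 alpha chain (Cd8a) helps killer T cells, and some other cells, bind MHC class I. NK cells kill with the same granules but lack a T cell receptor. In bulk RNA, fewer cells of a type and less RNA per cell cannot be told apart.

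The genes lie partly in clusters. In the RefSeq gene order of GRCm38.p6, Cd3g, Cd3d and Cd3e are consecutive coding genes on chromosome 9, and Gzmg, Gzmn, Gzmf, Gzmc and Gzmb are consecutive on chromosome 14. The table itself was made on GRCm39, so no position in it is given. Promoter windows of 250 bases before the RefSeq start (GRCm38.p6) were available for all 8 genes. The windows of Gzmb and Gzmc, which varied together across libraries, and of Cd3e and Cd3g, which varied together in another way, are shown 5′ to 3′ on the gene's strand. Capitals mark matches, on either strand, to 5 short motifs of transcription factor families, AP-1, RUNX, T-box, ETS and GATA, whose letters are given with their frequencies in the next paragraph.
Gzmb, chr14:56262335-56262584, minus strand: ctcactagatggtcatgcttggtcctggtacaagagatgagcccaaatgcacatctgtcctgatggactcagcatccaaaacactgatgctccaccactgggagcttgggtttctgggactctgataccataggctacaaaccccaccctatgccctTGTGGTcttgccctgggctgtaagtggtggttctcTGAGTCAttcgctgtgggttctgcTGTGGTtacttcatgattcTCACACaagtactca
Gzmc, chr14:56234658-56234907, minus strand: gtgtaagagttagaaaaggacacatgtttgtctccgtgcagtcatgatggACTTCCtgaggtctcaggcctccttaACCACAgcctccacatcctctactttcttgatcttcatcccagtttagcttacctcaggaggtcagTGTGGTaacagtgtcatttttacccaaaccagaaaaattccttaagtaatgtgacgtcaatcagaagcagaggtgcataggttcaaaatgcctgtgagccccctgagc
Cd3e, chr9:45009612-45009861, minus strand: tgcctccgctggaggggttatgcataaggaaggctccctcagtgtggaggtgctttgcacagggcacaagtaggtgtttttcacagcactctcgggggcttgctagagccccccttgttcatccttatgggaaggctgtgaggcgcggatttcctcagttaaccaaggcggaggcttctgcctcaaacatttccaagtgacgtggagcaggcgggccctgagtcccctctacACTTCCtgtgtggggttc
Cd3g, chr9:44980432-44980681, minus strand: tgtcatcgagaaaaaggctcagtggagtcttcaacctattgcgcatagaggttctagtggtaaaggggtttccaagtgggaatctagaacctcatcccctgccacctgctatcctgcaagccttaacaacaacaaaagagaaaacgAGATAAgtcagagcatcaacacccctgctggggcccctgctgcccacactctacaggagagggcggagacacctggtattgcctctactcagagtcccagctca

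The RUNX letters (TGTGGT) stood in the windows of the 5 granule genes (Gzma, Gzmb, Gzmc, Prf1 and Nkg7) and not in those of the 3 receptor genes (Cd3e, Cd3g and Cd8a). They occur in 14% of all 32851 promoter windows of this length. The Gzmb window held them 2 times, with AP-1 letters between the 2 matches and T-box letters nearest the start, and the Gzmc window held them 2 times with an ETS match. For Gzmb alone, the bases after the RefSeq start were not found in an annotated transcript of the gene. The start used for its window is therefore less sure. The Cd3e window had an ETS match only and the Cd3g window a GATA match only. The AP-1 letters (TGANTCA) occur in 6.7% of all windows. The T-box letters (TCACAC) occur in 12.3% of them. The ETS letters (GGAAGT) occur in 19.7%, and the GATA letters (AGATAA) in 10%. These are matches of letters, and no binding was measured.

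None of the 8 genes passed an adjusted p of 0.05 in any of the 10 comparisons made. The fit was limma's, with p-values adjusted by the Benjamini-Hochberg method over 16330 genes. Most differences had the same sign across the genes: with olaparib they were positive in 8 of 8 genes in OR1, 7 of 8 in OR2 and 8 of 8 in MDA594. The Gzmc difference in MDA594 was 0.03, and below 0 in 10 of the 31 alternatives, among them the fit without a correlation between libraries of a code. Against MDA594, untreated OR1 and untreated OR2 had negative differences in 8 of 8 genes each. The SD within a group reached 1.99 for Cd3e and 1.88 for Gzmc.

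**Figure D1:**
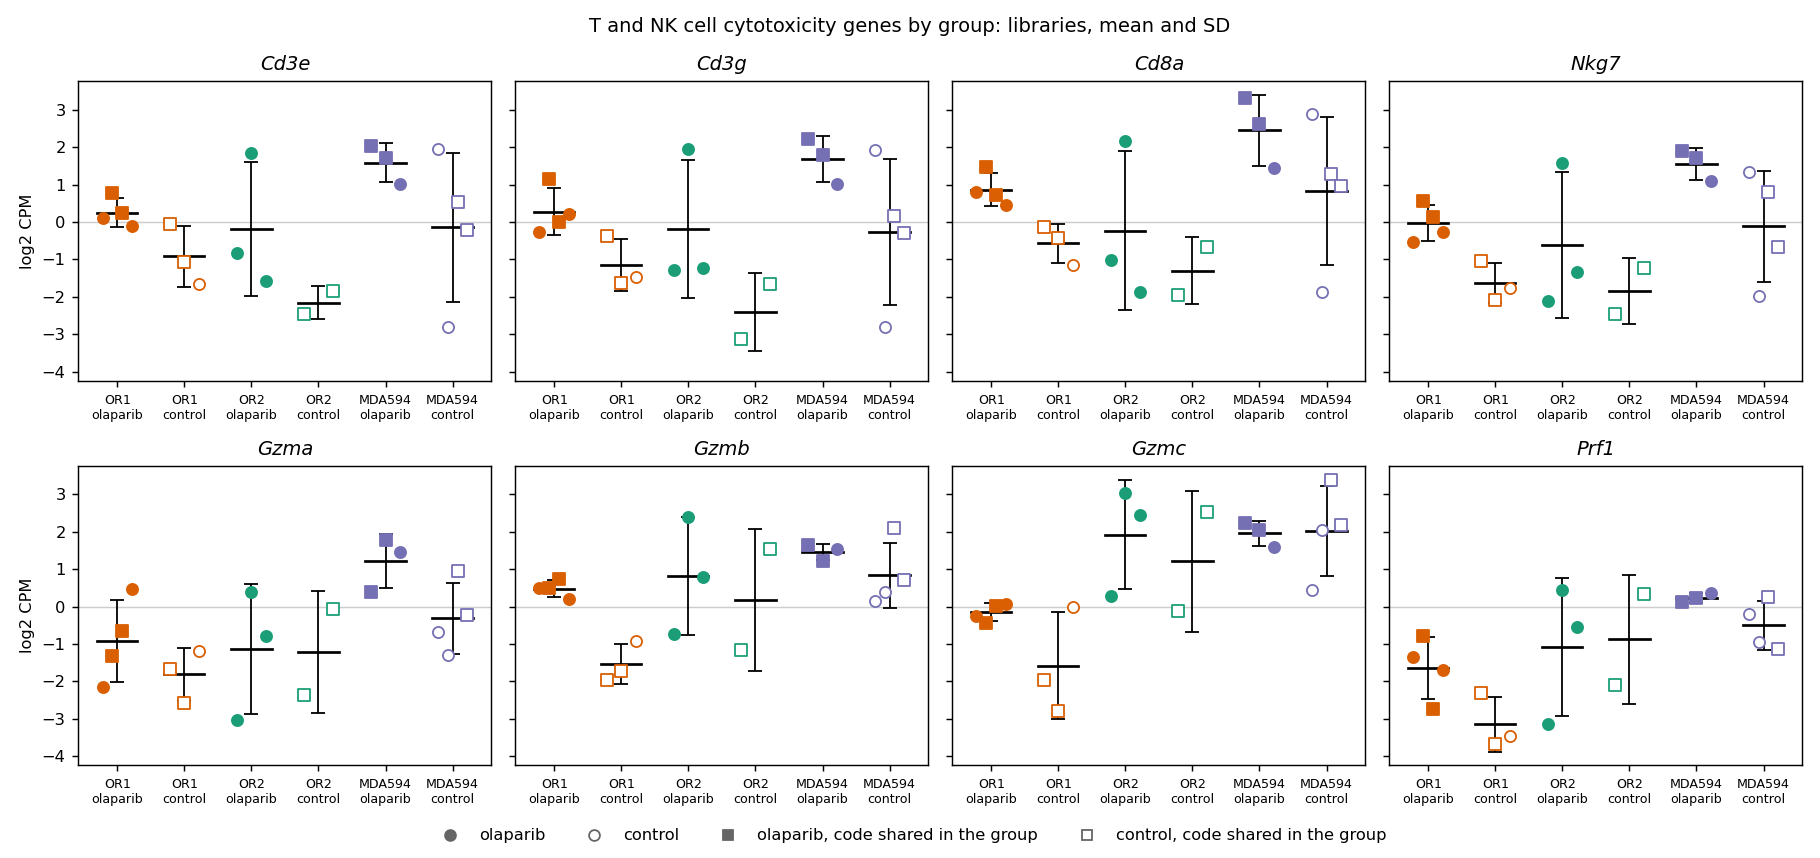
Log2 CPM of the 8 genes in each grouped library, with the mean (long line) and SD (bars); filled symbols are olaparib, open symbols controls, and squares share a host code with another library of their group. Cd3e, Cd3g, Cd8a and Nkg7 have the same profile, while Gzmc stands between 0.45 and 3.38 in the MDA594 controls, where Cd3e runs between -2.81 and 1.94.

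Cd3e, the CD3 epsilon chain, had log2 CPM of 0.10, 0.78, 0.23 and -0.12 in the OR1 olaparib libraries, against -0.05, -1.06 and -1.65 in the OR1 controls. It had -0.83, 1.83 and -1.57 in OR2 olaparib, against -2.47 and -1.84 in the OR2 controls. In MDA594 it had 2.03, 1.71 and 1.0 with olaparib, against 1.94, -2.81, 0.53 and -0.21 in controls. The MDA594 controls thus ran from the lowest Cd3e value of the grouped libraries to close to the highest. MDA594 control 2 had 7 Cd3e reads (exact 95% Poisson interval 2.81 to 14.4, counting error only), and MDA594 control 1 had 181. By group mean, Cd3e was lowest in OR2 controls (-2.15 ± 0.44, SD, n = 2), followed by OR1 controls (-0.92 ± 0.81, n = 3), OR2 olaparib (-0.19 ± 1.79, n = 3), MDA594 controls (-0.14 ± 1.99, n = 4), OR1 olaparib (0.25 ± 0.38, n = 4) and MDA594 olaparib (1.58 ± 0.53, n = 3). Of neighbours in this order, only the pair at the bottom and the pair at the top had libraries that did not overlap, and these pairs were not a planned comparison except that MDA594 and OR1 were compared with both treated.

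Cd8a had log2 CPM of 0.80, 1.47, 0.72 and 0.45 in OR1 olaparib, against -0.14, -0.42 and -1.16 in OR1 controls. It had -1.02, 2.17 and -1.86 in OR2 olaparib, against -1.94 and -0.67 in OR2 controls. In MDA594 it had 3.31, 2.61 and 1.43 with olaparib, against 2.89, -1.86, 1.28 and 0.95 in controls. OR2 olaparib 2 was the highest OR2 library, and the other 2 OR2 olaparib libraries lay between the OR2 controls. Cd3g, the CD3 gamma chain, had 1.16 in OR1 olaparib 2 as the highest OR1 value. Its value of -3.13 in OR2 control 1, from 8 reads, was its lowest in the series. Unlike Cd8a, Cd3g had all OR2 olaparib libraries (-1.29, 1.95 and -1.22) above both OR2 controls (-3.13 and -1.66), as 10.5% of all genes did.

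Nkg7, a granule membrane protein of NK and killer T cells, followed these receptor genes. It ranged over -0.54 to 0.57 in OR1 olaparib and -2.10 to -1.03 in OR1 controls, over -2.10 to 1.58 in OR2 olaparib and -2.47 to -1.22 in OR2 controls, and over 1.08 to 1.90 in MDA594 olaparib and -1.96 to 1.34 in MDA594 controls. The OR1 libraries did not overlap by treatment, and the libraries of the other lines did.

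Gzmb, granzyme B, had log2 CPM of 0.51, 0.49, 0.72 and 0.19 in OR1 olaparib, against -1.95, -1.73 and -0.93 in OR1 controls. In OR2 it had -0.75, 2.40 and 0.80 with olaparib, against -1.16 and 1.52 in controls. In MDA594 it had 1.64, 1.22 and 1.53 with olaparib, against 0.15, 0.38, 2.08 and 0.70 in controls. OR1 controls were the group in which every library lay below -0.9.

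Gzmc, granzyme C, had log2 CPM of -0.25, -0.44, 0.02 and 0.06 in OR1 olaparib, against -1.95, -2.79 and -0.00 in OR1 controls. In OR2 it had 0.29, 3.03 and 2.45 with olaparib, against -0.12 and 2.53 in controls. In MDA594 it had 2.24, 2.03 and 1.58 with olaparib, against 0.45, 2.04, 3.38 and 2.17 in controls. Its group means were -1.58 ± 1.43 in OR1 controls (SD, n = 3), -0.15 ± 0.24 in OR1 olaparib (n = 4), 1.20 ± 1.88 in OR2 controls (n = 2), 1.92 ± 1.44 in OR2 olaparib (n = 3), 1.95 ± 0.34 in MDA594 olaparib (n = 3) and 2.01 ± 1.20 in MDA594 controls (n = 4). No neighbours in this order had libraries that stood apart. All 7 OR1 libraries lay below every MDA594 library and below 4 of the 5 OR2 libraries. Reads ran from 6 in OR1 control 2 (interval 2.20 to 13.1) to 769 in MDA594 control 3 and 778 in OR2 olaparib 2.

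Prf1, perforin, was the least read of the genes, with 3 reads in OR1 control 2 (interval 0.62 to 8.77). It had log2 CPM of -1.35, -0.79, -2.74 and -1.68 in OR1 olaparib, against -2.31, -3.68 and -3.45 in OR1 controls. It ranged over -3.13 to 0.44 in OR2 olaparib and was -2.09 and 0.33 in OR2 controls, with 0.11 to 0.36 in MDA594 olaparib and -1.14 to 0.24 in MDA594 controls. Gzma, granzyme A, lies outside the chromosome 14 cluster. It ranged over -2.15 to 0.46 in OR1 olaparib and -2.58 to -1.19 in OR1 controls, over -3.03 to 0.39 in OR2 olaparib and was -2.36 and -0.07 in OR2 controls, with 0.39 to 1.78 in MDA594 olaparib and -1.29 to 0.95 in MDA594 controls.

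The first question was whether the genes differ between olaparib-treated and control tumours of a line. In OR1 the median log2 difference (olaparib minus control) of the 8 genes was 1.44, beside -0.01 over all genes. Positive differences made up 48.1% of all genes. Gzmb had the smallest p, with a difference of 1.92 (SE 0.81, 95% interval 0.21 to 3.64, unadjusted p = 0.0299, adjusted p = 0.795 by limma). Every OR1 olaparib library lay above every OR1 control for Cd3g, Cd8a, Gzmb and Nkg7, 4 of 8 genes, where 7.43% of all genes did so. No gene of the table was called in OR1 (0%), while 959 had an unadjusted p under 0.05. Gzmb was called when only the OR1 libraries were fitted (difference 2.07, adjusted p = 0.0345), a fit that called 148 genes and had a negative correlation (-0.18) for shared codes.

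In OR2 the median difference of the 8 genes was 0.89, beside -0.00 over all genes, of which 49.8% had a positive difference. Every OR2 olaparib library lay above both controls for Cd3e (difference 1.96, SE 1.19, adjusted p = 0.853 by limma) and Cd3g (2.21, SE 1.25, adjusted p = 0.826), 2 of 8 genes against 10.5% of all genes. Prf1 had -0.20 (SE 1.15). No gene was called in OR2 (0%), and 1084 had an unadjusted p under 0.05. The median was 1.91 without OR2 control 2 and -0.087 without OR2 control 1, so the 2 control libraries of 1 animal set its sign.

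In MDA594 the median difference was 1.61, beside 0.01 over all genes, of which 50.9% were positive. Cd3g had 1.89 (SE 1.03, adjusted p = 0.371 by limma), Cd3e 1.70 (SE 0.98, adjusted p = 0.397), Nkg7 1.65 (SE 0.91, adjusted p = 0.376) and Gzma 1.66 (SE 0.96, adjusted p = 0.398). Gzmc, with 0.03 (SE 0.91), had the smallest difference. In none of the 8 genes did the treated and control libraries stand apart, where 12.7% of all genes had every treated library above every control. The fit called 20 genes (0.122%) in this line. The median was 0.61 without MDA594 control 2, the library with 7 Cd3e reads.

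Averaged over the lines, the difference was positive in 8 of 8 genes (49.9% of all genes), with a median of 1.23. Cd3g had 1.84 (SE 0.64, unadjusted p = 0.0108, adjusted p = 0.214 by limma), Cd3e 1.63 (SE 0.61, adjusted p = 0.245), Nkg7 1.48 (SE 0.57, adjusted p = 0.254) and Gzmb 1.10 (SE 0.50, adjusted p = 0.346). The average called 1 gene in the table (0.00612%). Cd3e, Cd3g and Nkg7 were called in the 13 libraries whose name begins with ABA450 alone, with adjusted p of 0.0280, 0.0197 and 0.0288, and with the title number as a term in the model, with 0.0266, 0.0139 and 0.0209. The ABA450 libraries hold controls of 1 host code per line, so the calls in them rest on 1 control animal per line. In these 2 fits, which called 2277 and 2430 genes, shared codes had a negative correlation, -0.30 and -0.13, in place of 0.404.

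Interaction contrasts set the responses of OR1 and OR2 against the response of MDA594. The median difference of response was -0.10 for OR1 and -0.26 for OR2. For Gzmc it was 1.22 for OR1 (95% interval -1.49 to 3.94) and 0.69 for OR2 (-2.32 to 3.71), and for Cd3e -0.49 (-3.41 to 2.43) and 0.26 (-2.99 to 3.51). The intervals reach far to both sides of 0, so neither equal nor unequal responses were shown. No gene of the table was called for either line (0% each), with 1197 and 1006 at an unadjusted p under 0.05.

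**Figure D2:**
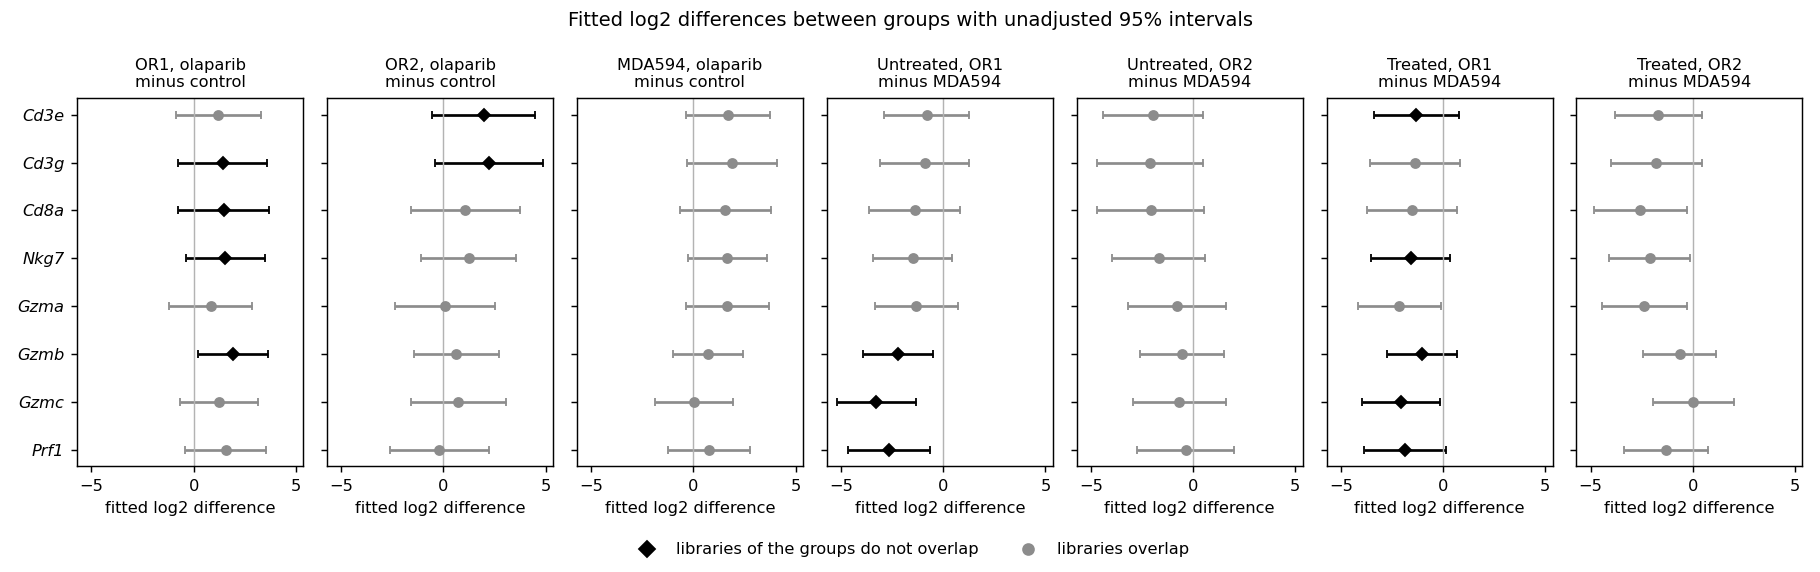
Fitted log2 differences between groups for the 8 genes in 7 comparisons, with unadjusted 95% intervals; the fit takes libraries of a host code as correlated, so values can differ from those between plain group means; black diamonds mark genes whose libraries do not overlap between the groups. Differences with olaparib lie mostly right of 0 and those against MDA594 mostly left, and Gzmc of untreated OR1 is farthest from 0, at -3.27.

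The second question was whether resistant and sensitive tumours differ without drug. Untreated OR1 had a median difference from untreated MDA594 of -1.45, beside 0.02 over all genes, of which 47.7% were below 0. The median was -2.29 without MDA594 control 2. Gzmc stood at -3.27 (SE 0.91, 95% interval -5.19 to -1.35, unadjusted p = 0.00223, adjusted p = 0.173 by limma), Prf1 at -2.67 (SE 0.95, adjusted p = 0.255) and Gzmb at -2.20 (SE 0.81, adjusted p = 0.271). For these 3 genes every OR1 control lay below every MDA594 control, where 9.85% of all genes did so. The receptor genes had smaller differences, -0.82 (SE 0.98) for Cd3e and -0.90 (SE 1.03) for Cd3g, and both were just above 0, at 0.06 and 0.01, without MDA594 control 1. The fit called 18 genes (0.11%), and Gzmc was not among them. Gzmc was called in another fit, without a correlation between libraries of a code (-3.59, adjusted p = 0.0261 by limma). That fit takes libraries of a shared code as independent, and its share of all genes called is not given here. In the ABA450 libraries alone, which hold 1 OR1 control, Gzmc had -2.78.

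Untreated OR2 had a median difference from untreated MDA594 of -1.24, and 50.5% of all genes were below 0. The median was -0.36 without OR2 control 1 and -2.14 without OR2 control 2. The receptor genes led here, with -2.11 for Cd3g (SE 1.23, adjusted p = 0.610 by limma), -2.07 for Cd8a (SE 1.24, adjusted p = 0.625) and -1.96 for Cd3e (SE 1.16, adjusted p = 0.616), while Gzmc had -0.68 (SE 1.08) and Prf1 -0.36 (SE 1.12). No gene of the 8 had libraries that stood apart, where 12% of all genes had every OR2 control below every MDA594 control. The fit called 35 genes (0.214%). Gzma, Gzmb, Gzmc and Prf1 turned positive, between 0.35 and 0.85, without OR2 control 1. In the ABA450 libraries alone, which leave 2 MDA594 controls of 1 host code, Cd3e had -2.31 and Cd3g -2.33. The correlation for shared codes was -0.30 there.

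With both lines treated, OR1 had a median difference from MDA594 of -1.55, negative in 8 of 8 genes against 50.3% of all genes. Every OR1 library lay below every MDA594 library for Cd3e, Gzmb, Gzmc, Prf1 and Nkg7, 5 of 8 genes against 15.9% of all genes. Gzma had -2.15 (SE 0.96, adjusted p = 0.256 by limma) and Gzmc -2.05 (SE 0.91, adjusted p = 0.253). The fit called 89 genes (0.545%). Fitted on these 7 libraries alone, all 8 genes were called, with adjusted p of 0.00174 for Gzmc to 0.0206 for Cd3g, and so were 4809 genes of the table, with a correlation of -0.38 for shared codes. In the ABA450 libraries alone, with a correlation of -0.30 for shared codes, Gzmc had -2.13 and Prf1 -1.96.

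Treated OR2 had a median difference from treated MDA594 of -1.74, negative in 7 of 8 genes against 52.1% of all genes, with Gzmc at 0.01 (SE 0.94) and at -0.03 without a correlation between libraries of a code. Cd8a had -2.57 (SE 1.08, unadjusted p = 0.0291, adjusted p = 0.230 by limma), Gzma -2.38 (SE 0.99, adjusted p = 0.227) and Nkg7 -2.12 (SE 0.94, adjusted p = 0.256). None of the 8 had libraries that stood apart, where 11.1% of all genes had every OR2 library below every MDA594 library. The fit called 258 genes (1.58%). OR2 olaparib 2 was the highest treated OR2 library for Cd3e, Cd8a and Gzmc, and the median was -2.78 without it. Comparisons that share a group, such as the response of a line and its comparison with MDA594, are not independent.

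Library names fall into those that begin with ABA445 and with ABA450. The ABA445 libraries alone (6, with no treated MDA594) could not give a value for each comparison. In the ABA450 libraries alone the medians were 1.82 for the OR1 response, 1.5 for OR2 and 1.1 for MDA594, and -2.05 and -1.75 for untreated OR1 and untreated OR2 against MDA594, with -1.53 and -1.38 for the treated pairs. The number in a library's title is shared between control and olaparib libraries of each line, and the labels do not say what it marks. With it as a term, the medians were 1.5 for the OR2 response, -2.90 for untreated OR1, -2.33 for untreated OR2, -2.87 for treated OR1 and -1.1 for treated OR2. MDA594 shares a number with OR1 only between MDA594 control 1 and OR1 olaparib 1. With OR2 it does so only between MDA594 control 2 and OR2 olaparib 1. The medians against MDA594 with this term thus rest on these libraries. The medians of the response differences of OR1 and OR2 turned positive, 0.57 and 0.62 in the ABA450 libraries alone and 0.31 and 0.43 with the title number.

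**Figure D3:**
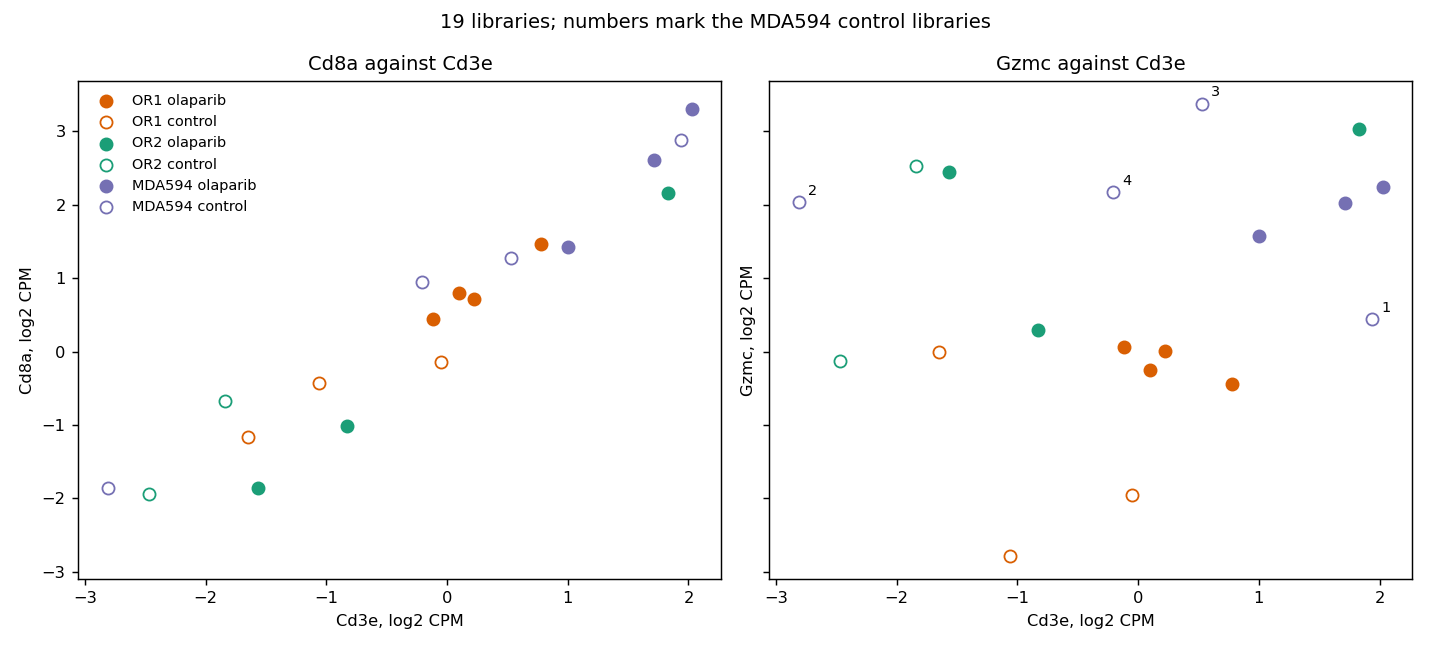
Log2 CPM of Cd8a (left) and Gzmc (right) against Cd3e in the 19 grouped libraries; filled symbols are olaparib, open symbols controls, and the numbers mark the MDA594 controls. Cd8a follows Cd3e closely (r = 0.96) and Gzmc does not (r = 0.18), with MDA594 controls 1 and 2 at opposite ends.

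The 8 genes did not vary as 1 unit across libraries. Over the 19 grouped libraries, Pearson's r among Cd3e, Cd3g, Cd8a and Nkg7 ran from 0.93 to 0.98 (Spearman's rho 0.93 to 0.96), and from 0.90 to 0.98 after group means were removed. Among Gzma, Gzmb, Gzmc and Prf1 it ran from 0.67 to 0.86 (rho 0.66 to 0.84). Gzmc with Cd3e, Cd3g and Cd8a gave 0.18 to 0.25 (rho 0.17 to 0.25). Gzma, Gzmb and Prf1 lay between, with 0.48 to 0.62 against Cd3e, Cd3g and Cd8a, and so did Nkg7 with the 4 other granule genes, 0.43 to 0.76. Within groups, Gzmc gave r of -0.01 with Cd3e and 0.86 with Gzmb. Without the 2 libraries farthest from the median of Cd3e, which were MDA594 control 2 and OR2 control 1, r with Cd3e was 0.96 for Cd8a and 0.25 for Gzmc. These are descriptions over all 28 pairs and carry no p, since libraries share host codes and depth.

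Single libraries show the split. MDA594 control 2 had 7 Cd3e reads and 216 Gzmc reads (interval 188 to 247), a log2 difference (Gzmc minus Cd3e) of 4.85. MDA594 control 1 had 181 Cd3e reads and 64 Gzmc reads, a log2 difference of -1.49. OR2 olaparib 3 and OR2 control 2 also had Gzmc high relative to Cd3e, by 4.02 and 4.37. The same difference kept to a narrow range in MDA594 olaparib, 0.21 to 0.58, and lay between -1.22 and 0.18 in OR1 olaparib.

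Set against Ptprc, the pan-leukocyte gene for CD45, Cd3e differed by -4.75 to -4.51 on the log2 scale in MDA594 olaparib, -6.74 to -3.68 in MDA594 controls, -5.16 to -4.29 in OR1 olaparib and -5.13 to -4.04 in OR1 controls. In OR1 the 2 treatments thus had close means of Cd3e relative to Ptprc, -4.65 with olaparib and -4.66 in controls, and Ptprc itself differed by 1.18 (SE 0.46, adjusted p = 0.778 by limma). The other genes were less close in OR1. Gzmb had means of -4.42 with olaparib and -5.28 in controls, and Nkg7 had -4.92 and -5.37. Cd3g, Cd8a, Gzmc and Prf1 also had higher means with olaparib, and Gzma a lower one, -5.82 against -5.55. In MDA594, means with olaparib were lower than in controls for Gzmc (-4.23 against -2.70), Gzmb (-4.72 against -3.88) and Prf1 (-5.95 against -5.22). Those of Cd3e, Cd3g, Cd8a, Nkg7 and Gzma were higher there. The MDA594 libraries overlapped, with Gzmc between -5.17 and -1.65 in controls. In OR2 Cd3e relative to Ptprc was -6.17 to -4.44 with olaparib against -7.90 and -6.92 in controls, and these libraries did not overlap. Those of Cd3g did not overlap either, and those of Cd8a, Nkg7, Gzma, Gzmb, Gzmc and Prf1 did. The share of all genes without overlap relative to Ptprc was not computed, so this is not read as particular to Cd3e and Cd3g. Both OR2 controls are of 1 host code, with 13 and 22 Cd3e reads and 8 and 25 Cd3g reads. The difference within a library compares libraries, not the levels of different genes.

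The other granzymes of the chromosome 14 cluster fell into different patterns. Gzmd and Gzme followed Gzmc (r = 0.83 each) and hardly Cd3e (0.23 and 0.29), and so did Mcpt8, a basophil protease whose gene lies in the same region of that chromosome (0.85 with Gzmc, 0.40 with Cd3e). Gzmf and Gzmg had negative r with Cd3e (-0.52 each) and positive r with Gzmc (0.57 and 0.47). Without the 2 libraries farthest from the median of Cd3e, their r with Cd3e was -0.33 each. Both genes were at 0 reads in several grouped libraries. Gzmf had 203 reads in MDA594 control 2, 245 in OR2 olaparib 3, and 99 and 564 in the OR2 controls, against at most 44 in each other grouped library. These are the libraries in which Gzmc was high and Cd3e low, together with OR2 control 1. Granzymes B to G are close paralogs, and how the authors' estimation divided reads among them was not tested. Gzmk, Gzmm and Gzmn are not analysed here.

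**Figure D4:**
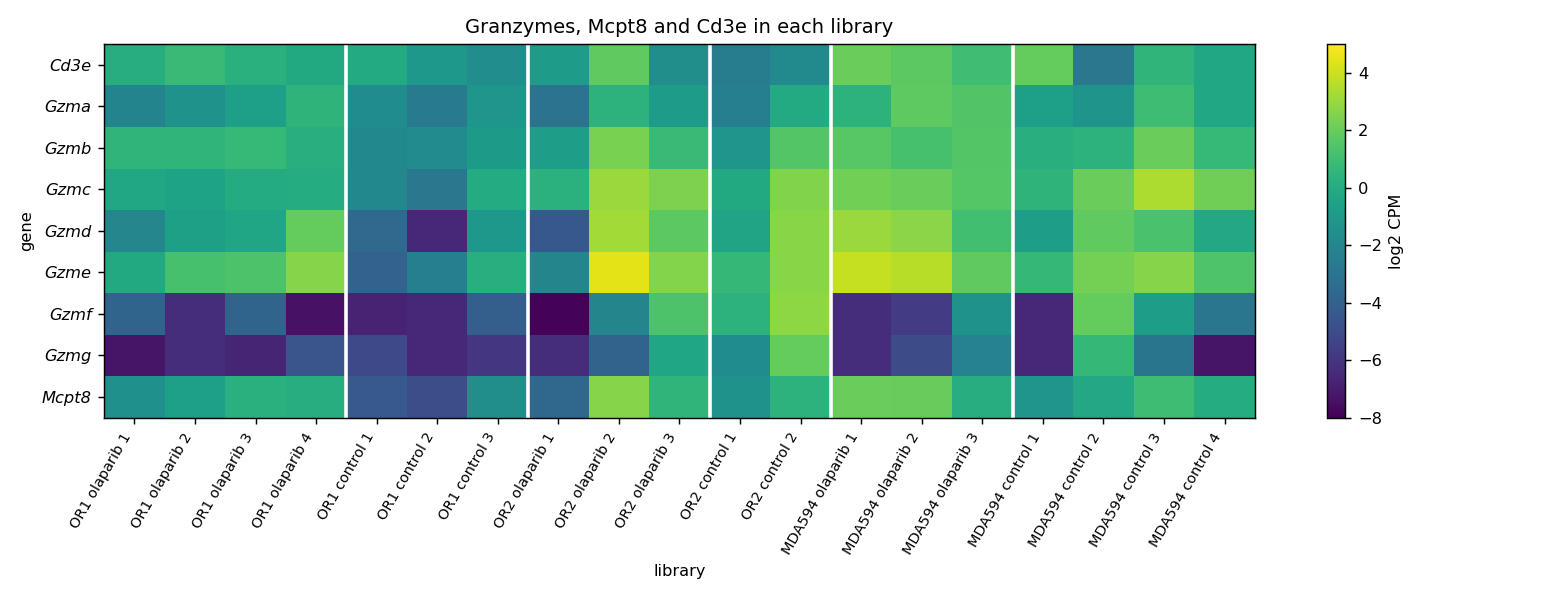
Log2 CPM of Cd3e, 7 granzymes and Mcpt8 (rows) in the 19 grouped libraries (columns), with white lines between groups; lighter is higher, on a scale from -8 to 5. Gzmf and Gzmg are light in MDA594 control 2, OR2 olaparib 3 and both OR2 controls, and dark in most other libraries.

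The genes most like the mean of the 8, by Pearson's r over the 19 libraries among 14528 genes with a mean log2 CPM of at least 0, were Clec4a2 (0.95), Irf8, Pld4, Irf5, Arhgap15, Dock10, Ctss, Lair1, Il10ra and Klra2 (0.93). Several of these, such as Ctss (cathepsin S) and Irf5, are known from macrophages and dendritic cells. Under the same limit on mean level, most like Cd3e were Ms4a4b (0.97), Gimap3 (0.97), a gene of T cell survival, and Cd8a (0.96). Genes with a pattern like that of Gzmc included Fam89b (0.88) and Abcc3 (0.87), an efflux transporter.

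Other T cell genes had r with Cd3e of 0.35 (Thy1) to 0.97, with a median of 0.91. Of 18 tested, 18 had a positive difference with olaparib in OR1, 17 in OR2 and 18 in MDA594, with median differences of 1.09, 1.05 and 1.27, and none passed the test. Cd4, the co-receptor of helper T cells, had 1.49 in OR1 (SE 0.59, adjusted p = 0.778 by limma), 1.52 in OR2 (SE 0.72, adjusted p = 0.748) and 1.76 in MDA594 (SE 0.59, adjusted p = 0.154). Trac, the constant region of the T cell receptor alpha chain, had 2.74 in OR2 (SE 1.12, adjusted p = 0.689). The sum of the 19 measured T cell genes was 29.0 to 55.0 CPM in OR1 olaparib and 20.2 to 23.6 in OR1 controls, 14.9 to 91.7 in OR2 olaparib and 20.9 and 66.9 in OR2 controls, and 77.8 to 90.6 in MDA594 olaparib and 27.0 to 69 in MDA594 controls. It holds genes that followed Cd3e less closely, such as Thy1 (r = 0.35) and Bcl11b (0.51). In the OR2 controls, Cd3e stood at 0.18 and 0.28 CPM and Trac had 3 and 7 reads. The sum is therefore not read as a level of T cells.

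Bcl11b, a transcription factor of the T cell lineage, was the only list gene called in any comparison. It fell in treated OR2 against treated MDA594, by 3.40 on the log2 scale (SE 0.68, adjusted p = 0.0229 by limma), with log2 CPM of -0.75, 0.80 and -1.25 in OR2 and 2.24, 3.23 and 3.38 in MDA594. In untreated OR1 and OR2 it had -3.07 (SE 0.66, adjusted p = 0.0790) and -3.11 (SE 0.78, adjusted p = 0.110), and in treated OR1 -2.52 (SE 0.66, adjusted p = 0.0892), with no overlap of libraries in any of these. Of all genes, 9.85%, 12% and 15.9% were lower without overlap in these comparisons, in the same order. The call in treated OR2 was lost without OR2 olaparib 3 (adjusted p = 0.0713), MDA594 olaparib 2 (0.0781) or MDA594 olaparib 3 (0.167), with only the 6 libraries compared (0.0582) and with the title number as a term (0.0999). The difference stayed between -4.14 and -2.30 over all 31 alternatives. MDA594 control 2, with 7 Cd3e reads, had a Bcl11b log2 CPM of 2.83, so Bcl11b did not follow the CD3 genes there (r = 0.51 with Cd3e over the 19 libraries, 0.18 within groups).

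NK cell receptors also had mostly positive differences with olaparib, in 14 of 14 tested genes in OR1, 10 in OR2 and 14 in MDA594, with medians of 1.17, 0.56 and 1.3 and none called. Tyrobp, the signalling adaptor DAP12, which macrophages also use, had 1.31 in OR1 (SE 0.36, adjusted p = 0.705 by limma) and 1.28 in MDA594 (SE 0.36, adjusted p = 0.117). Cd96 had -1.82 in OR2 (SE 0.68, adjusted p = 0.630). Klrk1, the gene for NKG2D, which NK cells and killer T cells share, had 1.95 in MDA594 (SE 0.79, adjusted p = 0.224) and r of 0.94 with Cd3e. Klrb1c, the gene for NK1.1, had r of 0.63 with Cd3e and 0.52 with Gzmc. In treated OR1 against treated MDA594, 14 of 14 were negative, with a median of -1.53.

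Of the granule machinery, Xcl1 (a lymphocyte chemokine) had 2.15 with olaparib in MDA594 (SE 0.79, adjusted p = 0.184 by limma) and -2.72 in treated OR1 against MDA594 (SE 0.79, adjusted p = 0.110), and Tnfsf10 (the death ligand TRAIL) 1.62 in OR1 (SE 0.51, adjusted p = 0.705). The list's medians with olaparib were 0.42 in OR1, -0.21 in OR2 and 0.75 in MDA594 over 12 genes, many of which other cells use too. Among regulators, Il12b had 2.91 in OR2 (SE 1.25, adjusted p = 0.701) and Il18r1 -3.31 (SE 1.24, adjusted p = 0.630). Il15, a growth factor of NK and memory T cells, had r of 0.81 with Gzmc and 0.30 with Cd3e. Serpina3g, listed with the inhibitors of granule proteases, had -3.09 in treated OR2 against MDA594 (SE 0.81, adjusted p = 0.0625).

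Markers of other leukocytes were followed beside the 8 genes. All 7 macrophage genes had positive differences with olaparib in OR1 and MDA594 (medians 1.28 and 1.40) and 6 of 7 in OR2 (0.33). Their sum was 176 to 384 CPM in OR1 olaparib and 78.3 to 118 in OR1 controls, which did not overlap, 157 to 684 in OR2 olaparib and 166 and 268 in OR2 controls, and 462 to 729 in MDA594 olaparib and 169 to 305 in MDA594 controls, which did not overlap either. Cd68 had 1.41 in OR1 (SE 0.39, adjusted p = 0.705 by limma) and 1.47 in MDA594 (SE 0.39, adjusted p = 0.108). The 5 pan-leukocyte genes had positive differences with olaparib in OR1 (5 of 5) and MDA594 (5 of 5) and in 2 of 5 in OR2, and of the 3 antibody genes 3, 1 and 2 were positive in OR1, MDA594 and OR2. The sum of the pan-leukocyte genes ran from 95.7 to 148 CPM in OR1 olaparib and 48.8 to 51.3 in OR1 controls, 74.1 to 297 in OR2 olaparib and 127 and 136 in OR2 controls, and 221 to 341 in MDA594 olaparib and 60.3 to 145 in MDA594 controls. Their part in the differences of the killing genes was not tested.

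The 3 measured antibody genes summed to 1.16 to 164 CPM in MDA594 controls, where control 1 had an Igkc log2 CPM of 6.96, and to 1.05 to 23.7 in the other groups. The 5 muscle genes summed to 783 CPM in MDA594 olaparib 3 and at most 54.8 in every other grouped library, and 1 or more were at 0 reads in some libraries of 4 groups. The 5 epithelial genes summed to 1201 to 3888 CPM over all libraries. No member was at 0 reads in any library.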

How the data were processed

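Poly(A) RNA of 20 mouse breast tumour allografts was sequenced, with a stranded mRNA kit per the labels' protocols. Per the submitters' processing notes, the tools were STAR 2.7.10a, RSEM 1.3.1 and limma, on GRCm39. The annotation is not given in the sources used here. What the authors deposited is log2 CPM, to which no further normalisation was applied. After undoing the log2, a constant of 0.5 reads and each library's scaling, 100% of values under 1000 reads were whole (tolerance 0.01). Reads and Poisson intervals come from these and cover counting error only. Gene levels are not divided by length, so genes are not ranked by level.

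Groups were taken from titles and treatment labels. In R 4.3.3, limma 3.58.1 (statmod 1.5.0) was fitted to the 19 grouped libraries with 1 mean per group, a correlation of 0.404 between libraries of a host code, 13 residual degrees of freedom and a mean trend. Genes with log2 CPM above 0 in at least 2 libraries were tested, 16330 of 16411. Tests were two-sided with Benjamini-Hochberg adjustment over all tested genes and a threshold of 0.05. There were 10 comparisons, 14 lists (134 genes, 98 with a row) and 31 alternatives. The members and lists were chosen with earlier results of these data known. Named list genes are those past the threshold and up to 3 with the smallest p per list and comparison, of which a selection is given, with genes used as markers beside a result; Klrb1c, Il15 and Mcpt8 were picked for their correlation after values were seen. The recovered reads were also fitted with limma's voom. The fitting step was checked on simulated data. Promoter windows and gene order are from RefSeq tables on GRCm38.p6, read in Python, and the motifs were chosen from textbook knowledge after the members were known. One gene that the likeness rule names is not reported here.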

Additional observations from a re-analysis of the deposited data

Results flagged for a closer look

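The library with no group, whose title says control and whose treatment label says treated with olaparib, is listed by the table's header among the MDA594 vehicle libraries. It entered no comparison. It was singled out because 7 of the 8 genes lay above every MDA594 control there: log2 CPM was 2.32 for Cd3e, 2.56 for Cd3g, 3.29 for Cd8a, 2.41 for Gzma, 2.86 for Gzmb, 0.62 for Prf1 and 1.98 for Nkg7. The highest MDA594 control values were 1.94, 1.92, 2.89, 0.95, 2.08, 0.24 and 1.34 in the same order of genes. Gzmc, at 0.98, lay within the MDA594 control range. The library had 241 Cd3e reads and 95 Gzmc reads. No library stood apart by Dixon's test (critical value 0.829) in the groups of 4, OR1 olaparib and MDA594 controls, in 16 tests of which chance flags about 1 in 20.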

How the results depend on the processing

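There were 31 alternatives, of which those that left out 1 library kept the correlation at 0.404. Of 1960 values of the 8 single genes, 1899 kept their direction and side of the threshold, 21 became called and 40 changed sign, in 17 of 64 results. The count of called genes was 0 in the reported fits. It was 1 for the OR1 response with only the groups compared. For the mean response it was 3 in the ABA450 libraries alone and 3 with the title number as a term. For untreated OR1 it was 1 with no correlation between libraries of a code and 1 in ABA450 alone, for untreated OR2 it was 2 in ABA450 alone, and for treated OR1 it was 2 in ABA450 alone and 8 with only the groups compared. Several of these fits had negative estimated correlations, and the mean response has no value with only the groups compared. The share of all genes called is not given for each of these fits, so the counts are not read as particular to the 8 genes. The fits of OR2 response and treated OR2 on their own groups were made without a correlation, as none could be estimated. With log2(CPM + 1) the medians shrank, for instance to 0.53 in OR1 from olaparib, since low genes are compressed by construction. The stricter filter left out Gzma and Prf1. Voom on the recovered reads called 0 genes in the table for each olaparib response, and 2, 37, 31 and 334 for untreated OR1, untreated OR2, treated OR1 and treated OR2.

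The number in a library's title is shared between control and olaparib libraries of each line, and the labels do not say what it marks. With the title number in the model, comparisons with MDA594 rest on the few libraries that share a number across lines. With this term the median was -2.90 for untreated OR1, -2.33 for untreated OR2 and -2.87 for treated OR1, and Gzmb in treated OR1 (0.32), Cd3e in treated OR2 (0.27), Gzmc in treated OR2 (-1.11) and Prf1 in the OR2 response (0.82) changed sign. In ABA450 alone, Gzmc in the OR1 response (-0.14), Prf1 in the OR2 response (0.82) and Gzmb in treated OR2 (0.14) did. Gzmc in the MDA594 response, 0.03 as reported, was -0.039 with log2(CPM + 1), -0.044 with quantile normalisation, -0.0086 with voom, -0.059 without a correlation, -0.88 with a term for the library-name series, -0.78 in ABA450 alone and -0.64 with the title number. Gzma in the OR2 response was -0.047 with voom, and Gzmc in treated OR2 was -0.096 with voom, -0.029 without a correlation and -0.029 with only the groups compared. Bcl11b in treated OR2 kept its direction in all 31 alternatives and its call in 16 of the 19 that left out 1 library and 10 of the other 12. The cause was not tested.

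Leaving out 1 library moved the median of the MDA594 response over 0.61 to 1.91, of the OR2 response over -0.087 to 1.91, of untreated OR1 over -2.29 to -1.15, of untreated OR2 over -2.14 to -0.36, of treated OR2 over -2.78 to -1.30 and of the OR2 response difference over -1.21 to 0.45. Single genes ran over -0.57 to 0.35 for Gzmc in the MDA594 response. In the OR2 response they ran over -1.07 to 1.22 for Gzma, -0.71 to 1.97 for Gzmb, -0.61 to 2.05 for Gzmc, -1.42 to 1.01 for Prf1 and -0.14 to 1.88 for Cd8a. In untreated OR1 they ran over -1.90 to 0.060 for Cd3e and -1.94 to 0.0091 for Cd3g. In untreated OR2 they ran over -1.94 to 0.35 for Gzma, -1.89 to 0.79 for Gzmb, -2.01 to 0.65 for Gzmc and -1.58 to 0.85 for Prf1. In treated OR2 they ran over -0.54 to 0.83 for Gzmc and -1.45 to 0.13 for Gzmb. The lowest and highest values for OR2 came mostly from leaving out 1 of its 2 controls or OR2 olaparib 2. Counts of 3 to 30 reads, as for Prf1 in OR1, limit what can be detected for that gene.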

Other observations

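The library with no group had a Gzmc minus Cd3e difference of -1.34 on the log2 scale, between the -1.49 of MDA594 control 1 and the 0.21 to 0.58 of the MDA594 olaparib libraries, with the other MDA594 controls at 2.38, 2.85 and 4.85. Its 5 muscle genes summed to 66.6 CPM and its 4 other granzymes to 3.81 CPM, with Gzmf and Gzmg at 0 reads. Relative to Ptprc, its Cd3e stood at -3.64, above all 19 grouped libraries, whose highest was -3.68.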
